A study of Mus musculus with 12 samples.

Results

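Ribosome biogenesis and nucleolar genes were described in the oocytes of day-14 mice that lack MTR4 and in wild type (WT) oocytes, across nuclei and cytoplasms. The genes were chosen by symbol: those that begin with Utp, Nop, Rrp or Nol and a number, Polr1a to Polr1e, Imp3, Imp4, and 13 further named genes from Fbl to Bms1. They are 52 of the 23235 gene entries in the table. Total RNA depleted of ribosomal RNA was sequenced from pools of 10 nuclei or 10 cytoplasms, which had been parted by micromanipulation. The 12 libraries form 4 groups of 3, which are the nuclei labelled Mtr4-null, WT nuclei, Mtr4-null cytoplasms and WT cytoplasms. Strain, allele and the means of removing Mtr4 were not given in the sources used here, nor was the number of mice, so p-values measure the spread from library to library, which may be technical.

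Ribosomes are built in the nucleolus. RNA polymerase I copies the ribosomal DNA into one long precursor, small nucleolar RNAs (snoRNAs) guide its chemical modification as part of protein complexes, and assembly factors fold and cut it into the RNAs of the small and the large subunit. MTR4 is an RNA helicase that unwinds substrates of the exosome in the nucleus, where that nuclease trims spacers of the precursor and degrades many other RNAs. Growing oocytes are known for building up a large store of ribosomes.

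The values are FPKM, that is fragments per kilobase of transcript, scaled to the mapped fragments of the library, so they can be compared between genes per length. Log2 fold changes were taken on log2(FPKM + 1), which understates the change of a gene of low level, and are given with their standard error (SE). A gene was called changed at an adjusted p below 0.05 in limma, a linear model fitted here over the 13157 genes that reached 1 FPKM in 3 or more libraries. Of the 52 genes, 51 entered the test. Nol3, whose name comes from the nucleolus but whose protein is best known as a repressor of cell death, did not, with at most 0.846 FPKM in any library.

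Skiv2l2, as this table calls Mtr4, stood at 1.04, 0.315 and 0.700 FPKM in Mtr4-null cytoplasms, against 21.1, 19.4 and 20.2 FPKM in the WT cytoplasms. The nuclei labelled Mtr4-null held 7.98, 0.182 and 1.12 FPKM, against 6.06, 2.45 and 5.37 FPKM in the WT nuclei. Replicate 1 of the nuclei labelled Mtr4-null thus goes against its label, and results for nuclei are given with and without it. Replicate 3 of these nuclei stood apart in another way, with Spearman correlations across genes of 0.916 to 0.931 with the Mtr4-null cytoplasms and 0.792 to 0.806 with the WT nuclei (genes are not independent replicates). Replicate 2 also correlated more with the Mtr4-null cytoplasms (0.784 to 0.811) than with the WT nuclei (0.715 to 0.747). Its relative depth, 0.129, was the lowest of all libraries. Absolute depth is unknown. Relative depth, estimated from low values, was 0.129 to 0.401 in nuclei and 0.521 to 1.56 in cytoplasms, so nuclear values are less precise. The small Cajal body RNA Scarna2 took 58.0 to 81.7% of the summed FPKM of each nucleus library and at most 5.13% of that of a cytoplasm library. All 10 oocyte markers reached 1 FPKM in each library, and 11 granulosa cell markers summed to 7.57 to 41.2 FPKM per library.

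The 52 genes summed to 549, 486 and 1121 FPKM in the nuclei labelled Mtr4-null, against 605, 473 and 616 FPKM in the WT nuclei. They summed to 1473, 1514 and 1297 FPKM in the Mtr4-null cytoplasms, against 1575, 1448 and 1374 FPKM in the WT cytoplasms. The genotypes overlapped in both compartments, and the high nuclear value belongs to replicate 3 of the nuclei labelled Mtr4-null. The 21 small subunit genes made up the largest share, at 547 ± 39.9 FPKM in Mtr4-null cytoplasm and 539 ± 23.2 FPKM in WT cytoplasm (SD, n = 3 each). Summed levels that were lower in each Mtr4-null cytoplasm than in each WT cytoplasm were those of the 3 box C/D snoRNP genes, at 72.5 ± 4.86 FPKM in Mtr4-null and 96.6 ± 5.66 FPKM in WT, and of the 4 box H/ACA snoRNP genes, at 55.2 ± 13.4 FPKM in Mtr4-null and 78.6 ± 0.790 FPKM in WT (SD, n = 3 each). Within the box H/ACA sum, Dkc1 had means of 15.1 FPKM in Mtr4-null and 36.3 FPKM in WT cytoplasms, while each other gene overlapped between genotypes. Within the box C/D sum, Fbl went the other way, with means of 22.4 FPKM in Mtr4-null and 19.1 FPKM in WT cytoplasms. The median SD of log2 values between libraries of a group was 0.77 for nuclei labelled Mtr4-null against 0.34 for WT nuclei, and 0.21 for Mtr4-null against 0.14 for WT cytoplasms.

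**Figure D1:**
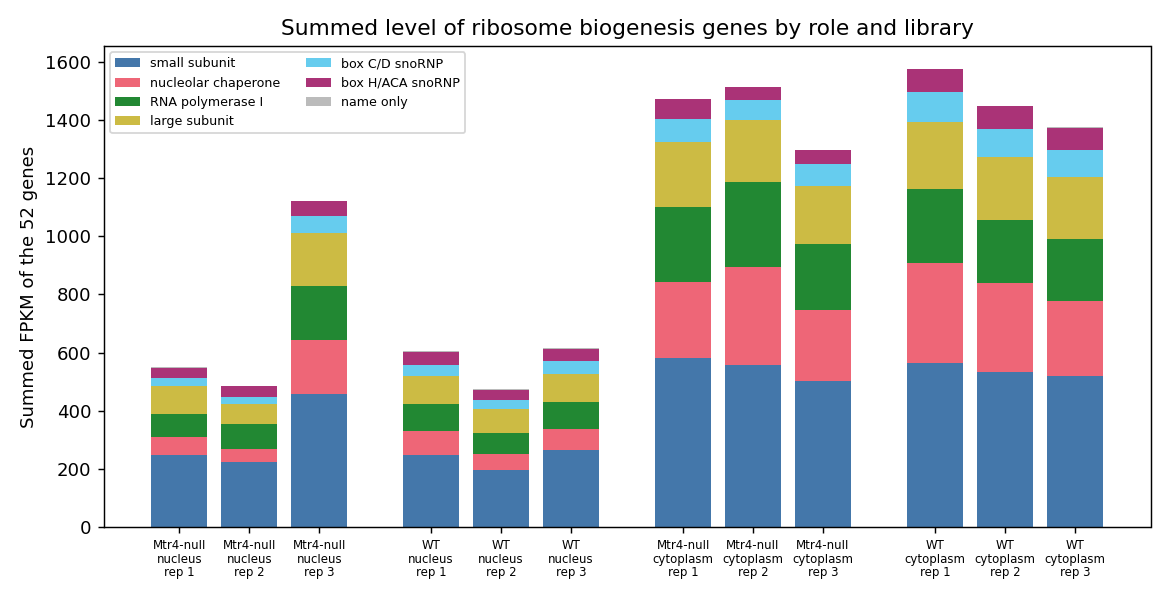
Summed FPKM of the 52 genes in each of the 12 libraries (bars, coloured by role). The cytoplasms stand between 1297 and 1575 FPKM and the nuclei between 473 and 616 FPKM, except replicate 3 of those labelled Mtr4-null at 1121 FPKM.

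The first comparison asks which of these transcripts changed in the cytoplasm without MTR4. Of the 51 genes, 2 were called, Rrp36 higher and Dkc1 lower in Mtr4-null cytoplasm, while 1.88% of all genes tested were called (1.17% higher and 0.714% lower). Their median log2 fold change was -0.11, with 21 positive and 30 negative, against a median of 0.00 over all genes. A fit of the 6 cytoplasm libraries alone, which leaves the noisier nuclei out of the estimate of the spread, called 9 of the 51, with Rrp36 and Nop2 higher and Dkc1, Imp4, Nol8, Nop56, Nop58, Polr1a and Rrp1 lower. That fit called 23.2% of all genes, with 13.3% higher and 9.85% lower. The Mtr4-null and WT cytoplasms did not overlap for 9 genes that were higher and 11 that were lower in Mtr4-null, beside 23% and 20.9% of all genes.

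Rrp36, a factor of early cuts in the precursor of the small subunit RNA, reached 29.6, 32.4 and 39.2 FPKM in Mtr4-null cytoplasms and 13.2, 8.50 and 9.28 FPKM in WT cytoplasms. Each Mtr4-null library lay above each WT library. The log2 fold change was 1.63 ± 0.33 (SE; limma adjusted p = 0.0216 with all libraries and 0.00447 with the cytoplasms alone). The call was kept without any single nucleus library and lost without any single cytoplasm library, where the limma adjusted p was 0.0578 to 0.140 with log2 fold changes of 1.51 to 1.80. It was also lost under quantile normalization (log2 1.45, limma adjusted p = 0.0612).

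The start of Rrp36 lies on chromosome 17, and its promoter in RefSeq (GRCm38.p6, minus strand, chr17:46674257-46674556, from 250 bases before to 50 bases after the annotated start) is shown because Rrp36 was the gene of the set with the largest rise. Capitals mark CTTCCGG, the reverse complement of CCGGAAG, the core that factors of the ETS family bind.
Rrp36: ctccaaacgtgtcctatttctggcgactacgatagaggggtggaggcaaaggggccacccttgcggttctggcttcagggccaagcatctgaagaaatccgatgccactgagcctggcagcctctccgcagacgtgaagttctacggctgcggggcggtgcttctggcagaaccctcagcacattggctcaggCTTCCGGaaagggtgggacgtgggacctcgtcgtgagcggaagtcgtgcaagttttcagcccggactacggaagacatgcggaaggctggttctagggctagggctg

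Dkc1 encodes dyskerin, the pseudouridine synthase of box H/ACA snoRNPs, which turn uridines of ribosomal RNA into pseudouridines. It stood at 17.4, 12.7 and 15.1 FPKM in Mtr4-null cytoplasms and 31.6, 40.1 and 37.1 FPKM in WT cytoplasms. The groups were well apart, with a log2 fold change of -1.22 ± 0.30 (SE; limma adjusted p = 0.0490, and 0.00490 in limma on the cytoplasms alone). The call is close to its threshold: it was lost without any single cytoplasm library (limma adjusted p = 0.123 to 0.276) or WT nucleus library (0.0516 to 0.0718) and kept without any single library labelled Mtr4-null nucleus. It was also lost with median-of-ratios scaling (log2 -1.17, limma adjusted p = 0.107), quantile normalization (-1.09, 0.151) and a pseudocount of 0.1 (0.0593). An exon of Mpp1 overlaps Dkc1 on the opposite strand, and whether the counting used strand is not given in the sources used here. Mpp1 held 2.90, 3.79 and 1.83 FPKM in Mtr4-null and 3.13, 3.46 and 3.31 FPKM in WT cytoplasms, far below Dkc1. The promoter of Dkc1 (RefSeq GRCm38.p6, plus strand, chrX:75095604-75095903) is shown for comparison, as that of the called gene that fell. It holds neither CCGGAAG nor CACGTG on either strand, so no letters are in capitals.
Dkc1: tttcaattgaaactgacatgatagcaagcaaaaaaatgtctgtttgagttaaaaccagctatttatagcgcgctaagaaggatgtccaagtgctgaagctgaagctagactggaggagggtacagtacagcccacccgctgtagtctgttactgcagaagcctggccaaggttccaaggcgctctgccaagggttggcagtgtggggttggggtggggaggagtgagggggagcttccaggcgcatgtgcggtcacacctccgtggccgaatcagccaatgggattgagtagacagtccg

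Promoter entries were at hand for 42 of the 52 genes, 53 entries in all, some of them overlapping. CCGGAAG, searched on both strands, was found in 16 of the 53 (30.2%), against 2910 of all 32851 promoters of the same length (8.86%). CACGTG, the palindromic E-box that MYC is known to bind, was found in 8 of the 53 (15.1%), against 2349 of 32851 (7.15%). Both motifs were present in the entries of Nop2 and Utp18. A match describes letters only.

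None of the other proteins of the box H/ACA particle was called in cytoplasm, and the genotypes overlapped for all 3. Nhp2 held 20.1, 25.2 and 9.23 FPKM in Mtr4-null cytoplasms and 31.9, 19.5 and 23.4 FPKM in WT cytoplasms. Nop10 varied widely within Mtr4-null, at 28.7, 4.84 and 23.9 FPKM, against 13.5, 17.2 and 15.7 FPKM in WT. Gar1 was low throughout, at 4.18, 2.62 and 1.63 FPKM in Mtr4-null and 2.18, 2.14 and 1.54 FPKM in WT cytoplasms.

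Box C/D particles carry the methyltransferase fibrillarin (Fbl) with the core proteins Nop56 and Nop58, and place methyl groups on ribosomal RNA. Nop58 stood at 20.99, 13.9 and 19.4 FPKM in Mtr4-null cytoplasms and 30.5, 31.2 and 31.99 FPKM in WT cytoplasms. Nop56 stood at 31.8, 33.7 and 30.6 FPKM in Mtr4-null cytoplasms and 51.4, 46.1 and 41.2 FPKM in WT cytoplasms. Neither group overlapped the other for these genes. Limma on the cytoplasms alone called log2 fold changes of -0.78 ± 0.16 for Nop58 (adjusted p = 0.0214) and -0.51 ± 0.10 for Nop56 (adjusted p = 0.0208). These SE come from that fit, not from the fit of all libraries that gave those of Rrp36 and Dkc1. The fit of all libraries called neither gene (limma adjusted p = 0.415 for Nop58 and 0.675 for Nop56). Fbl was not called in either fit, with 24.5, 19.9 and 22.7 FPKM in Mtr4-null and 21.1, 17.1 and 19.1 FPKM in WT cytoplasms, which overlapped (log2 0.22 ± 0.37, limma adjusted p = 0.946).

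Among the 6 genes of RNA polymerase I and its cofactor, Polr1a, the largest subunit, stood at 9.63, 13.3 and 12.6 FPKM in Mtr4-null cytoplasms and 22.5, 22.2 and 21.5 FPKM in WT cytoplasms. The groups did not overlap (log2 -0.86 ± 0.39, limma adjusted p = 0.382 with all libraries and 0.0104 with the cytoplasms alone). Ubtf, the factor that keeps ribosomal DNA open for the polymerase, had 32.4, 29.7 and 25.5 FPKM in Mtr4-null cytoplasms and 30.5, 20.2 and 20.4 FPKM in WT cytoplasms. These overlapped, as did those of Polr1d, the most abundant of the 6, a subunit shared with RNA polymerase III (181, 218 and 154 FPKM in Mtr4-null and 167, 148 and 139.6 FPKM in WT).

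Of the 14 tested large subunit genes, Nop2, a methyltransferase of the large subunit RNA, had 16.9, 18.3 and 18.1 FPKM in Mtr4-null cytoplasms and 10.997, 7.54 and 8.09 FPKM in WT cytoplasms. Its groups did not overlap. Limma on the cytoplasms alone called the log2 fold change of 0.94 ± 0.16 (SE of that fit, adjusted p = 0.0115). With all libraries it was not called (limma adjusted p = 0.256). The 3 proteins of the PeBoW complex work on the large subunit precursor. Bop1 stood at 26.8, 27.03 and 25.5 FPKM in Mtr4-null and 23.9, 14.8 and 19.3 FPKM in WT cytoplasms. Pes1 stood at 28.5, 30.1 and 22.9 FPKM in Mtr4-null and 37.5, 37.8 and 31.5 FPKM in WT cytoplasms. Wdr12 was near 3 FPKM, with 3.78, 3.08 and 3.37 FPKM in Mtr4-null and 5.05, 3.97 and 2.80 FPKM in WT cytoplasms. None of the 3 was called, with or without the nuclei, although Bop1 was higher and Pes1 lower in each Mtr4-null library. Nvl, an ATPase that releases factors from the large subunit precursor, overlapped between Mtr4-null (13.5, 9.40 and 7.42 FPKM) and WT cytoplasms (12.3, 12.6 and 12.2 FPKM).

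The 20 small subunit genes other than Rrp36 were not called with all libraries, and Imp4, a protein that pairs the precursor with the U3 snoRNA, was lower in limma on the cytoplasms alone (log2 -0.37 ± 0.08, adjusted p = 0.0209). Bms1, the GTPase of the small subunit processome, was the most abundant of this role over all libraries, with 95.0, 82.4 and 73.2 FPKM in Mtr4-null and 98.5, 105 and 94.6 FPKM in WT cytoplasms. Utp18, a scaffold protein of that processome, had 47.6, 60.3 and 39.7 FPKM in Mtr4-null and 59.3, 56.6 and 53.5 FPKM in WT cytoplasms. Both pairs of groups overlapped. The nucleolar chaperones had the highest and a middling level. Npm1 held 239.5, 319 and 225 FPKM in Mtr4-null and 317, 284 and 241 FPKM in WT cytoplasms, and Ncl held 21.2, 19.3 and 18.7 FPKM in Mtr4-null and 25.7, 22.5 and 18.2 FPKM in WT cytoplasms. Neither was called in any of the fits of the cytoplasms described.

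**Figure D2:**
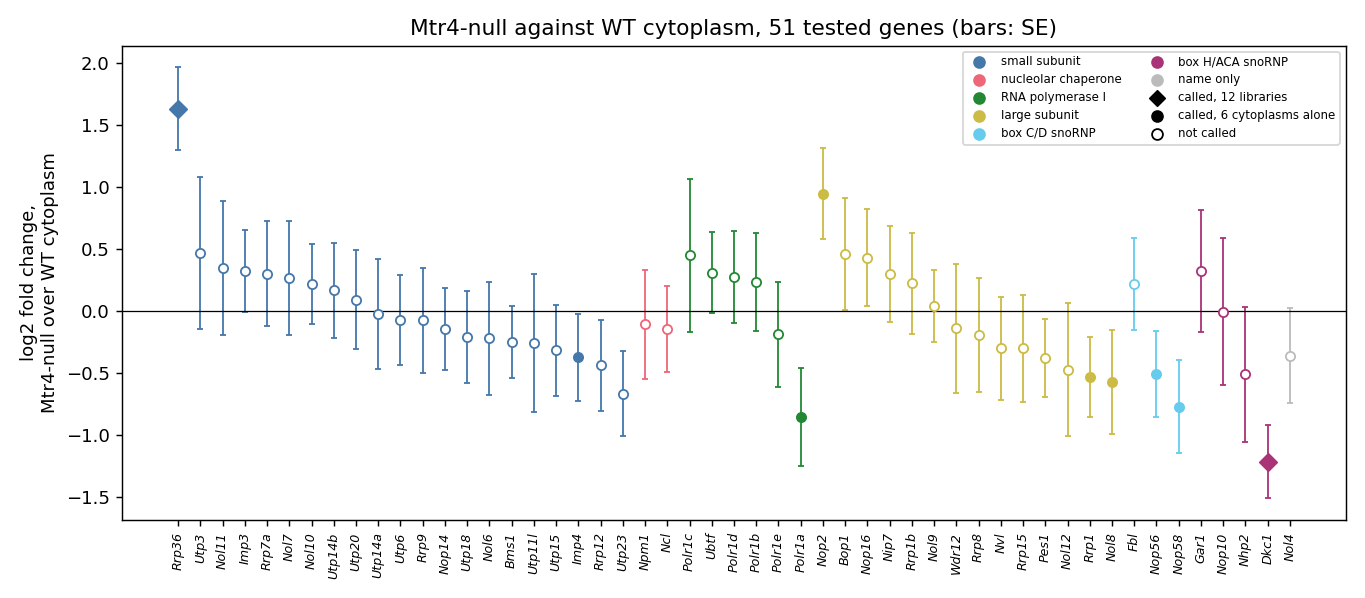
Log2 fold change, Mtr4-null over WT cytoplasm, of the 51 tested genes (vertical axis), by role and size. Bars are the SE of the fit of all 12 libraries. Filled diamonds mark the 2 genes called with all 12 libraries, filled circles the 7 further genes called with the 6 cytoplasms alone, open circles the rest.

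Of 90 other tested ribosome biogenesis genes, 0 were called in cytoplasm with all libraries, beside 1.88% of all genes. At an unadjusted limma p under 0.05 there were 9 (10%), beside 12.6% of all genes. Limma on the cytoplasms alone called 17, 8 higher and 9 lower, beside 13.3% and 9.85% of all genes. The median log2 fold change of the 90 genes was -0.08. Among them Ddx47, an RNA helicase, had 41.9, 46.4 and 40.7 FPKM in Mtr4-null and 15.6, 14.0 and 16.9 FPKM in WT cytoplasms, with no overlap (log2 1.42 ± 0.36, limma adjusted p = 0.0591 with all libraries and 0.00121 with the cytoplasms alone). Gltscr2, the gene of NOP53, which in yeast brings MTR4 to the large subunit precursor, had 21.7, 22.6 and 17.7 FPKM in Mtr4-null and 16.2, 11.7 and 12.7 FPKM in WT cytoplasms (log2 0.58 ± 0.40, limma adjusted p = 0.686 with all libraries and 0.0483 with the cytoplasms alone). Rn45s, the entry of the ribosomal RNA precursor itself, was listed at 2211, 20429 and 9796 FPKM in Mtr4-null and 1880, 805 and 332 FPKM in WT cytoplasms. After ribosomal RNA depletion, it stood at 0 in all 6 nuclei. Rn45s, outside both lists, was called higher in Mtr4-null cytoplasm with all libraries (log2 3.26 ± 0.67, limma adjusted p = 0.0210). The precursor is made in the nucleolus, yet its entry stood at 0 in every nucleus. Whether this entry was read alike in both compartments was not tested. What depletion left of the precursor in each library is unknown, and no difference was drawn from this entry.

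The sum over 11 granulosa cell markers was 20.5 to 26.5 FPKM in the Mtr4-null cytoplasms and 34.1 to 41.2 FPKM in the WT cytoplasms. Most of it was Nr5a2, at 20.3, 15.5 and 19.8 FPKM in Mtr4-null and 26.6, 28.4 and 30.6 FPKM in WT, while Amh (0.266, 0.191 and 0.520 FPKM in Mtr4-null and 0, 0.192 and 0.0352 FPKM in WT) and Foxl2 (0.140, 0.181 and 0.422 FPKM in Mtr4-null and 0.0941, 0.121 and 0.0222 FPKM in WT) had higher means in Mtr4-null. Amh and Foxl2 stayed below 1 FPKM in every cytoplasm. Kitl, at 1.96, 1.71 and 1.28 FPKM in Mtr4-null and 3.30, 2.78 and 3.49 FPKM in WT cytoplasms, was lower without overlap. Cyp19a1, at 2.53, 1.23 and 2.45 FPKM in Mtr4-null and 2.35, 5.51 and 3.94 FPKM in WT cytoplasms, overlapped. Of the 11, 3 to 4 reached 1 FPKM in each Mtr4-null and in each WT cytoplasm. The part of these cells in the results was not tested. Fewer cells of a type and less RNA per cell cannot be told apart in pooled samples.

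**Figure D3:**
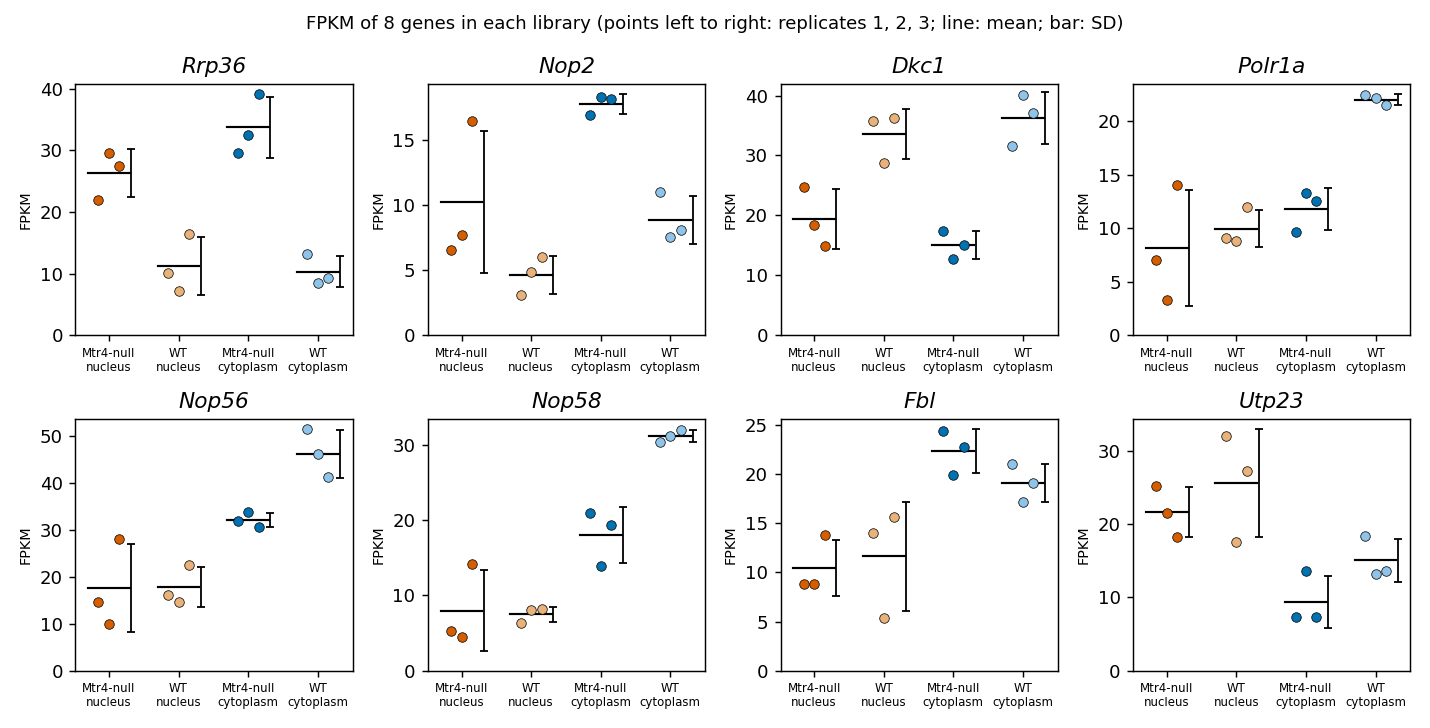
FPKM of 8 genes in each library (points, replicates 1 to 3 from left to right), with the mean (line) and SD (bar) of each group. Rrp36 is higher and Dkc1 lower in all Mtr4-null libraries of both compartments than in the WT libraries of the same compartment, while Utp23 has a higher mean in nuclei than in cytoplasms of the same genotype.

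The second comparison is that of nuclei. None of the 51 genes was called between the nuclei labelled Mtr4-null and the WT nuclei, in a limma fit that called 2.26% of all genes (0.517% higher and 1.75% lower), and 9 (17.6%) had an unadjusted p under 0.05, beside 18.3% of all genes. A limma fit of the nuclei alone also called 0, beside 0.038% of all genes, with 4 (7.84%) at an unadjusted p under 0.05, beside 7.79% of all genes. The median log2 fold change was 0.11, against 0.04 over all genes. The groups did not overlap for 4 genes that were higher, Rrp36, Ubtf, Nop2 and Imp3, and for 1 that was lower, Dkc1, beside 6.22% and 6.7% of all genes.

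Rrp36 and Dkc1, the genes called in cytoplasm, had the same directions here. Rrp36 reached 21.9, 29.5 and 27.4 FPKM in the nuclei labelled Mtr4-null and 10.1, 7.16 and 16.3 FPKM in WT nuclei (log2 1.22 ± 0.33, limma adjusted p = 0.0661). Dkc1 stood at 24.8, 18.4 and 14.8 FPKM in the nuclei labelled Mtr4-null and 35.7, 28.7 and 36.3 FPKM in WT nuclei (log2 -0.79 ± 0.30, limma adjusted p = 0.170). In both cases each library labelled Mtr4-null, replicate 1 included, lay on the same side of the WT nuclei.

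Ubtf held 10.8, 19.7 and 18.9 FPKM in the nuclei labelled Mtr4-null and 5.96, 5.54 and 7.82 FPKM in WT nuclei (log2 1.196 ± 0.32, limma adjusted p = 0.0645). Nop2 held 6.55, 7.69 and 16.5 FPKM and Imp3, a partner of Imp4 on the U3 snoRNA, 23.5, 36.5 and 53.9 FPKM in the nuclei labelled Mtr4-null, against 3.11, 4.83 and 5.99 FPKM and 23.5, 20.4 and 17.7 FPKM in WT nuclei. The groups stood apart narrowly for Nop2 and Imp3, through the library labelled replicate 1, and clearly for Ubtf. Polr1a, which was low in the Mtr4-null cytoplasms, had 7.05, 3.34 and 14.0 FPKM in the nuclei labelled Mtr4-null and 9.13, 8.85 and 11.96 FPKM in WT nuclei, which overlapped.

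Among the snoRNP proteins, Nhp2 was at 1.86, 9.87 and 14.2 FPKM in the nuclei labelled Mtr4-null and 3.13, 1.27 and 1.65 FPKM in WT nuclei, and Gar1 at 1.39, 5.81 and 3.08 FPKM, against 0, 2.38 and 0 FPKM in WT nuclei. In each case the library labelled replicate 1 lay among the WT nuclei. The box C/D genes follow. Fbl had 8.82, 8.86 and 13.8 FPKM in the nuclei labelled Mtr4-null and 14.0, 5.31 and 15.6 FPKM in WT nuclei. Nop56 had 14.6, 10.0 and 28.1 FPKM in the nuclei labelled Mtr4-null and 16.1, 14.7 and 22.6 FPKM in WT nuclei. Nop58 had 5.31, 4.45 and 14.2 FPKM in the nuclei labelled Mtr4-null and 6.37, 8.02 and 8.17 FPKM in WT nuclei. All 3 overlapped, with log2 fold changes between -0.11 and -0.05.

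Npm1, Ncl, Bop1, Pes1, Wdr12, Nvl and Utp18 overlapped too, and their values in nuclei were highest in replicate 3 of the nuclei labelled Mtr4-null. Npm1 was at 57.2, 38.7 and 170.3 FPKM in the nuclei labelled Mtr4-null and 72.7, 45.9 and 60.6 FPKM in WT nuclei, and Ncl at 5.29, 7.49 and 15.02 FPKM, against 11.4, 9.45 and 10.4 FPKM in WT nuclei. Bop1 was at 11.1, 3.47 and 20.5 FPKM in the nuclei labelled Mtr4-null and 9.57, 9.83 and 7.15 FPKM in WT nuclei. Pes1 followed with 12.6, 9.58 and 18.8 FPKM, against 13.4, 8.63 and 10.7 FPKM in WT nuclei, while Wdr12 was low, at 3.01, 0 and 3.65 FPKM, against 0.635, 2.89 and 2.72 FPKM in WT nuclei. For Nvl the values were 3.99, 5.13 and 13.8 FPKM in the nuclei labelled Mtr4-null and 6.73, 3.38 and 5.99 FPKM in WT nuclei, and for Utp18 they were 15.4, 12.2 and 37.8 FPKM, against 16.5, 11.8 and 14.9 FPKM in WT nuclei.

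The count of calls varied with the libraries left out. Without WT nucleus 2 or without WT nucleus 3, limma called 1 gene each, beside 3.37% and 1.54% of all genes. Once replicate 1 of the nuclei labelled Mtr4-null was left out, limma called 4 genes, all higher, beside 10.2% of all genes: Nhp2 (log2 2.14 ± 0.45, adjusted p = 0.00927), Gar1 (1.81 ± 0.51, adjusted p = 0.0377), Ubtf (1.46 ± 0.33, adjusted p = 0.0142) and Rrp36 (1.34 ± 0.37, adjusted p = 0.0364). With replicate 3 left out in place of replicate 1, 0 were called, beside 2.97% of all genes. Without both, a single library, replicate 2, the shallowest by relative depth, stands for Mtr4-null nuclei and is assumed to vary like the other groups. Limma then called the same 4 higher and 14 lower, with Dkc1 and Polr1a among those lower, beside 30.1% of all genes.

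Of the 90 other ribosome biogenesis genes, 1 (1.11%) was called in nuclei, beside 2.26% of all genes. This was Taf1d, a subunit of the SL1 factor that recruits RNA polymerase I. It had 15.9, 7.17 and 11.2 FPKM in the nuclei labelled Mtr4-null and 43.5, 26.7 and 39.1 FPKM in WT nuclei, with no overlap (log2 -1.62 ± 0.37, limma adjusted p = 0.0356). With replicate 1 of the nuclei labelled Mtr4-null left out it was -1.88 (limma adjusted p = 0.00927), but the call was lost in 10 of 19 alternatives, among them the nuclei alone (limma adjusted p = 0.446), a pseudocount of 0.1 (0.0829) and the absence of WT nucleus 1 (0.131) or 3 (0.0990). Gltscr2 overlapped, with 5.13, 9.59 and 14.7 FPKM in the nuclei labelled Mtr4-null and 6.49, 3.001 and 8.76 FPKM in WT nuclei.

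Some of the genes also carry snoRNAs in their introns, which are cut out of the host transcript. In GENCODE M21 (GRCm38), Dkc1, Ncl, Nop56 and Nop58 host 13 snoRNA genes, of which 6 are in the table and 2 were above 0 in any library. Both are shown because they are the readable snoRNAs of these hosts. Snora75 is a box H/ACA RNA of Ncl (chr1:86351169-86351301, minus strand), and capitals mark the ACA that names its class. Snord57 is a box C/D RNA of Nop56 (chr2:130278016-130278087, plus strand), and capitals mark its D box, CTGA.
Snora75: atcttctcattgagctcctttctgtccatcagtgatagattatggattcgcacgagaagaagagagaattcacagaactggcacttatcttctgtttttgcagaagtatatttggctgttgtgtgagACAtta
Snord57: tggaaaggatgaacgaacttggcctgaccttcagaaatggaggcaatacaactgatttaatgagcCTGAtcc

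Snora75 was listed at 143, 163 and 0 FPKM in the nuclei labelled Mtr4-null and at 0, 146 and 127 FPKM in WT nuclei; all cytoplasms had 0. Snord57 was listed at 8704 FPKM in replicate 2 of the nuclei labelled Mtr4-null and at 0 in the other 11. The host genes Ncl and Nop56 were read in all 12 libraries, unlike these snoRNA entries. Very short RNAs are poorly measured in such libraries, and no difference was drawn from these entries.

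The next comparisons set nucleus against cytoplasm. On the deposited scale, transcripts of these genes took a smaller share of nuclear RNA. In WT, 32 of the 51 genes were called lower in the nucleus and 0 higher, which is 62.7%, in a limma fit that called 57.1% of all genes (12% higher and 45% lower). WT nuclei and WT cytoplasms did not overlap for 38 genes that were lower and 2 that were higher in the nucleus, beside 59.4% and 14.1% of all genes. A limma fit of the 6 WT libraries alone called 36 lower and 2, Nop16 and Utp23, higher, beside 68.1% of all genes in either direction. The median log2 difference was -1.21, nucleus minus cytoplasm, against -0.90 over all genes. FPKM is a share of a library, and the scaling sets where 0 lies. After median-of-ratios scaling, which brings the median of all genes to 0.00, the median of the 51 was -0.24, and 17 were called, 9 lower and 8 higher, beside 9.84% and 19.3% of all genes. After quantile normalization 13 were called, 9 lower and 4 higher, beside 12.2% and 12.6% of all genes.

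The genes that were lower in the nucleus under all 3 scalings were 8, Nhp2, Nol8, Nop58, Npm1, Rrp15, Rrp8, Utp15 and Utp18. The share of all genes that were lower under all 3 scalings was not computed, so this count has no background to compare with. Nhp2 had the largest difference, at 2.02 ± 0.987 FPKM in WT nuclei and 24.9 ± 6.35 FPKM in WT cytoplasms (SD, n = 3 each; log2 -3.12 ± 0.55, limma adjusted p = 0.000760), and at -2.21 after median-of-ratios scaling. Npm1 was at 59.7 ± 13.5 FPKM in WT nuclei and 281 ± 38.1 FPKM in WT cytoplasms (log2 -2.23 ± 0.44, and -1.11 after median-of-ratios scaling). Nop58, Utp18 and Rrp8, a methyltransferase of the large subunit RNA, had log2 differences of -1.93, -1.91 and -2.11, and of -0.88, -0.83 and -1.10 after median-of-ratios scaling. In each of these 5 genes every WT nucleus lay below every WT cytoplasm. Rmnd5b, which overlaps Nhp2 exons on the opposite strand, held 4.32, 3.50 and 6.30 FPKM in WT nuclei. Each value was above that of Nhp2 in the same library (3.13, 1.27 and 1.65 FPKM), and whether the counting used strand is not given. In WT cytoplasms Rmnd5b held 10.8, 8.62 and 11.1 FPKM.

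A few genes went the other way. Utp23, a small subunit factor, was at 25.7 ± 7.37 FPKM in WT nuclei and 15.1 ± 2.90 FPKM in WT cytoplasms (log2 0.70 ± 0.34, limma adjusted p = 0.0874), and reached 1.77 ± 0.37 after median-of-ratios scaling (limma adjusted p = 0.00412). Dkc1, Nip7 and Rrp36 were also called higher in the WT nucleus both after median-of-ratios scaling and after quantile normalization, and not on the deposited scale. Dkc1 stood at 33.6 ± 4.22 FPKM in WT nuclei and 36.3 ± 4.31 FPKM in WT cytoplasms (log2 -0.11 ± 0.30), and the difference was 0.98 ± 0.34 after median-of-ratios scaling. Rrp36 stood at 11.2 ± 4.69 FPKM in WT nuclei and 10.3 ± 2.50 FPKM in WT cytoplasms (log2 0.06 ± 0.33), and 1.08 ± 0.33 after median-of-ratios scaling. Nip7, an assembly factor, stood at 18.4 ± 1.98 FPKM in WT nuclei and 14.2 ± 1.05 FPKM in WT cytoplasms.

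By role, on the deposited scale, 14 of 21 small subunit genes, 8 of 14 large subunit genes, 4 of 6 RNA polymerase I genes, 2 of 3 box C/D genes, 2 of 4 box H/ACA genes and both nucleolar chaperones were called lower in WT nuclei. Over all genes tested, 45% were called lower and 12% higher in this fit, and shares of roles with few genes are imprecise. Of the 90 other ribosome biogenesis genes, 60 were lower and 2 higher, with a median of -1.33, against -0.90 over all genes.

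In Mtr4-null oocytes, 20 of the 51 genes were called lower in nuclei than in cytoplasms and 1, Utp23, higher, beside 32.2% of all genes (28.1% lower and 4.08% higher). The compartments did not overlap for 25 genes that were lower and 1 that was higher in the nucleus, beside 35.8% and 5.95% of all genes. The median was -0.94, against -0.82 over all genes. Rrp8 was at 5.48 ± 5.87 FPKM in the nuclei labelled Mtr4-null and 19.6 ± 1.71 FPKM in Mtr4-null cytoplasms (SD, n = 3 each; log2 -2.03 ± 0.46, limma adjusted p = 0.0244). Npm1 was at 88.7 ± 71.2 FPKM in the nuclei and 261 ± 50.4 FPKM in the cytoplasms (log2 -1.82 ± 0.44, limma adjusted p = 0.0296). Of the other called genes, Polr1d, Bop1, Nol8, Utp18, Rrp9, Imp4, Nop58 and Rrp7a had the largest falls, with log2 differences between -1.46 and -1.19. Utp3, a small subunit factor, had a larger estimate that was not called (-1.61 ± 0.61, limma adjusted p = 0.0542), and Utp11l, Polr1c and Nol11 had uncalled estimates of -1.45, -1.43 and -1.40.

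Utp23 had 25.2, 21.6 and 18.3 FPKM in the nuclei labelled Mtr4-null and 7.30, 13.6 and 7.29 FPKM in Mtr4-null cytoplasms. The groups did not overlap (log2 1.17 ± 0.34, limma adjusted p = 0.0356), and Utp23 was also called after median-of-ratios scaling (2.03 ± 0.37, limma adjusted p = 0.00713) and quantile normalization (1.97 ± 0.35, limma adjusted p = 0.00775). A limma fit of these 6 libraries alone did not call it (adjusted p = 0.158). An annotated antisense gene, Gm34678, overlaps an exon of Utp23, and its reads cannot be told from those of Utp23 if strand was not used.

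These calls depended on single libraries. Limma called 42 of the 51 without replicate 3 of the nuclei labelled Mtr4-null (beside 64.8% of all genes), 0 without replicate 1 (2.52%), 0 without replicate 2 (4.47%), 0 without any single Mtr4-null cytoplasm (1.35 to 1.47%) and 1 without any single WT cytoplasm (2.33 to 2.63%). Without both libraries in doubt it called 40 (64.4%), the nucleus being 1 library. A fit of the 6 Mtr4-null libraries alone called 0, beside 0.935% of all genes, with 16 (31.4%) at an unadjusted limma p under 0.05, beside 31.5% of all genes. After median-of-ratios scaling 2 were called, Rrp8 lower and Utp23 higher, beside 4.91% of all genes, and after quantile normalization Npm1 was called lower and Utp23 higher, beside 3.7%. Relative depth was 0.129 to 0.401 in these nuclei and 0.521 to 1.12 in these cytoplasms, and its part in the differences was not tested.

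**Figure D4:**
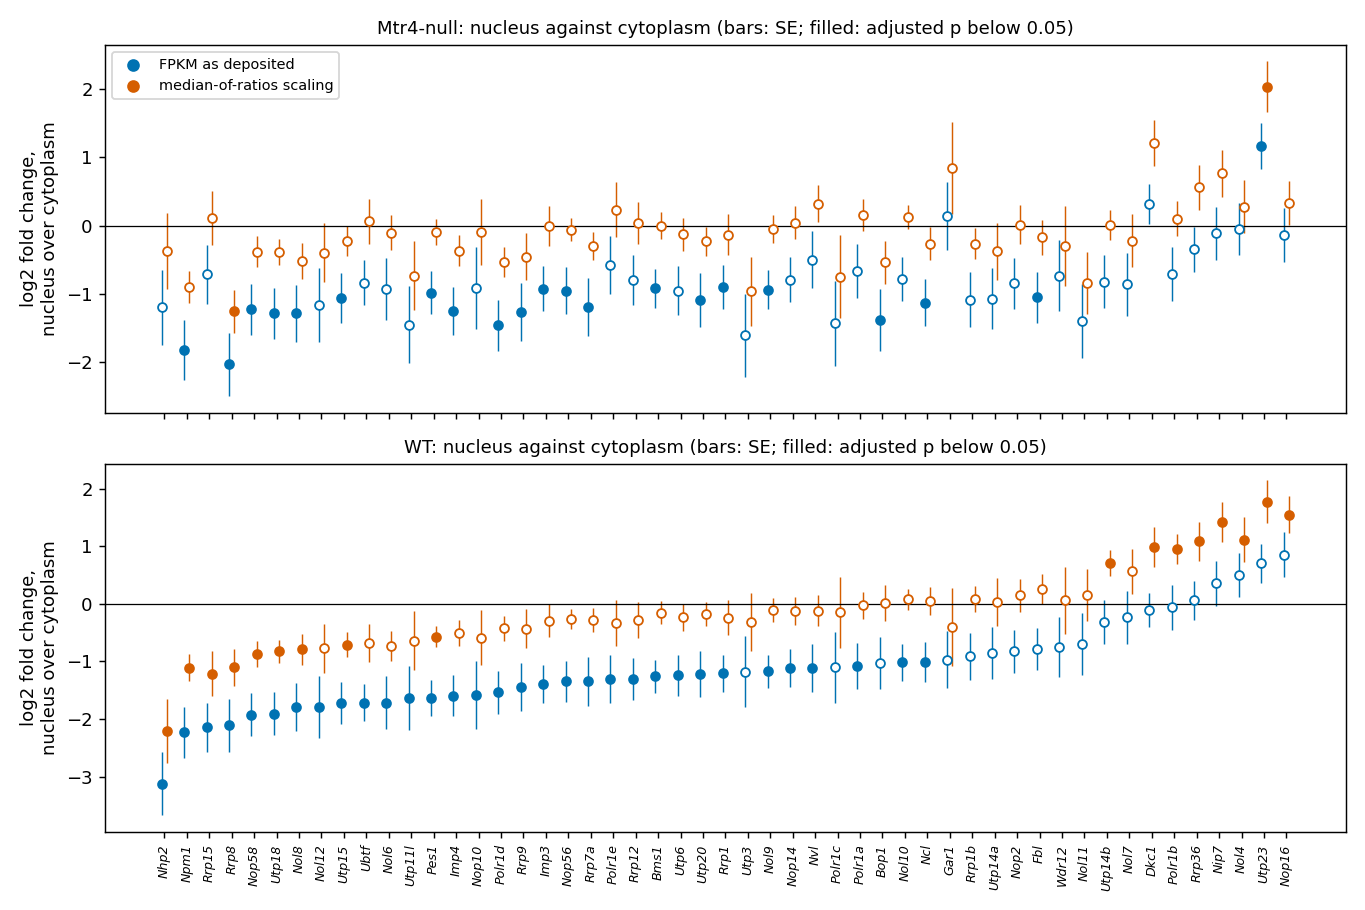
Log2 fold change, nucleus over cytoplasm, of the 51 tested genes in Mtr4-null (top) and WT oocytes (bottom), on the deposited FPKM (blue) and after median-of-ratios scaling (orange). Bars are SE and filled points are called. In WT, 32 genes are called lower on the deposited scale, while 9 are called lower and 8 higher after scaling.

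The last comparison asks whether the effect of the genotype differed between nucleus and cytoplasm. Of the 51 genes, 0 were called for this interaction, beside 0.122% of all genes, and 2 (3.92%) had an unadjusted limma p under 0.05, beside 10% of all genes. These were Nhp2 (log2 1.93 ± 0.77, limma adjusted p = 0.391) and Rrp15, a factor of large subunit assembly (1.44 ± 0.61, limma adjusted p = 0.427). With replicate 1 of the nuclei labelled Mtr4-null left out, Nhp2 was called, just under the threshold (2.65 ± 0.60, limma adjusted p = 0.049999), beside 1.29% of all genes. Rrp36 (-0.41 ± 0.47) and Dkc1 (0.43 ± 0.42) had interaction estimates smaller than their SE or close to it, and no difference between compartments was shown for either.

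Copies and neighbours limit some single values. In GENCODE M21, 10 of the genes have exons that overlap another gene of the table. Among them are Nhp2 (with Rmnd5b), Rrp8 (with Ilk) and Nop56 (with Idh3b), each on the opposite strand. Utp14b, which arose as a copy of Utp14a, lies within Acsl3 on the same strand. Utp14b had 15.1, 13.4 and 12.04 FPKM in Mtr4-null and 13.5, 9.73 and 12.8 FPKM in WT cytoplasms, which overlapped, and Acsl3 had 29.4, 19.3 and 22.4 FPKM in Mtr4-null and 40.1, 37.7 and 36.7 FPKM in WT cytoplasms. How reads shared by such genes were split is not given in the sources used here.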

How the data were processed

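The deposited table holds FPKM values per gene, which the authors made from rRNA-depleted total RNA libraries with TopHat2 2.1.1 and Cufflinks 2.2.1 on the mouse build mm9, per the submitters' processing notes. Which annotation served and whether counting used strand were not given. Each column was matched to a sample through its title. Duplicates are mentioned in the design text, whereas each group has 3 labelled libraries, none identical to another. FPKM is a share of a library, so an abundant RNA lowers all other values in it.

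Genes that reached 1 FPKM in 3 or more of the 12 libraries (13157) were tested with limma 3.58.1 (R 4.3.3) on log2(FPKM + 1), with a mean for each of 4 groups, moderated variances with a trend, two-sided p-values and Benjamini-Hochberg adjustment over all genes in each of 5 comparisons. The fit was tested on simulated data in which each gene had the same spread in all groups. In the real libraries the spread differed by group, so this run cannot vouch for the fit in that respect. Alternatives were a pseudocount of 0.1, no filter, median-of-ratios and quantile scaling, a replicate block, the compared groups alone, leaving out each library, and leaving out both libraries in doubt. Absolute depth is unknown, so no counting intervals are given. Relative depth came from low values, of genes under 0.3 FPKM in WT cytoplasm replicate 1, the reference library. Replicate numbers were not taken as pairs, since in no comparison did all 3 same-numbered pairs of deviations correlate above 0.1. They correlated at -0.15 to 0.07 between cytoplasms, -0.01 to 0.12 between nuclei, -0.13 to -0.01 between WT nucleus and cytoplasm, and 0.06, 0.30 and 0.12 between Mtr4-null nucleus and cytoplasm, where all were positive. Genes were named if called (up to 10 in each direction), if most abundant in their role, or if on a list of well-known factors (Fbl, Npm1, Ncl and the like); others were chosen after their values were seen, among them Nol3, Imp3, Nhp2, Nip7, Rrp15, Ddx47 and genes called in an alternative. The members and lists were chosen with earlier results of these data known. Sequences and neighbours are from RefSeq (GRCm38.p6) and GENCODE M21 (GRCm38), not from mm9.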

Additional observations from a re-analysis of the deposited data

How the results depend on the processing

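Counts of called genes follow for the 51 genes and, after them, for the 90 other ribosome biogenesis genes, with the share called over all tested genes in parentheses. In the cytoplasm the counts of 2 and 0 (1.88%) became 1 and 0 (1.06%) with a pseudocount of 0.1, 1 and 1 (1.74%) with median-of-ratios scaling, 0 and 1 (0.79%) with quantile normalization, 1 and 1 (2.49%) with the replicate block, 9 and 17 (23.2%) with the cytoplasms alone, and 5 and 6 (10.4%) without both libraries in doubt. Leaving out 1 library gave 0 to 2 and 0 to 1 (0.426 to 4.67%). In the nucleus the counts of 0 and 1 (2.26%) became 0 and 0 (0.775%) with a pseudocount of 0.1, 1 and 2 (3.07%) with no filter, 0 and 7 (9.52%) with median-of-ratios scaling, 2 and 6 (8.66%) with quantile normalization, 0 and 0 (0.038%) with the nuclei alone, and 18 and 23 (30.1%) without both libraries in doubt. Leaving out 1 library gave 0 to 4 and 0 to 3 (0.95 to 10.2%). For nucleus against cytoplasm in Mtr4-null the counts of 21 and 42 (32.2%) became 13 and 28 (24.5%) with a pseudocount of 0.1, 7 and 6 (6.15%) with no filter, 2 and 4 (4.91%) with median-of-ratios scaling, 2 and 3 (3.7%) with quantile normalization, 25 and 57 (42.1%) with the replicate block, 0 and 0 (0.935%) with these libraries alone, and 40 and 73 (64.4%) without both libraries in doubt. Leaving out 1 library gave 0 to 42 and 0 to 77 (1.35 to 64.8%). In WT the counts of 32 and 62 (57.1%) became 17 and 28 (29.1%) with median-of-ratios scaling and 13 and 15 (24.8%) with quantile normalization, and leaving out 1 library gave 25 to 38 and 51 to 74 (43.5 to 65.4%). For the interaction the counts of 0 and 0 (0.122%) became 0 and 1 (1.39%) with median-of-ratios scaling and 4 and 4 (11%) without both libraries in doubt, and leaving out 1 library gave 0 to 1 for both (0.038 to 2.2%). Scaling by median of ratios set the summed FPKM at 908 in nuclei labelled Mtr4-null and 849 in WT nuclei, and at 1011 and 1016 in Mtr4-null and WT cytoplasms. Of the genes called on the deposited scale, some changed direction for nucleus over cytoplasm. In WT, Bms1 (0.14, quantile), Ncl (0.0438 with median of ratios and 0.0272 with quantile) and Nol10 (0.0799 and 0.30) turned positive. In Mtr4-null, Bms1 (0.0025 and 0.0579) and Imp3 (0.0515, quantile) did. Genes not called on that scale are not listed, although some turned positive too, such as Dkc1 in WT (0.98 with median of ratios). Of the named genes called, the replicate block ended the call of Dkc1 in cytoplasm (limma adjusted p = 0.0504) and of no other. The causes were not tested, and some of these fits hold fewer libraries. Shallow nuclei limit all nuclear values.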
